A study of Homo sapiens with 2 samples.

Results

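The genes described here are the TGF-beta, SMAD and Hippo YAP genes, a list of 54 genes matched by current or older symbol to the probe annotation, which found 53 of them among the 18774 genes named on the array. BMPR1A, a BMP receptor gene, had no probe under its name and was not analysed here. RNA came from MDA-MB-231, an established line of highly invasive human breast cancer cells, grown in medium with 10% fetal calf serum. Cells on the first array had received 20 nM of an siRNA against NSD3L, the longer product of NSD3, which encodes a histone methyltransferase, and cells on the other array a control siRNA without a specific target, whose concentration the labels do not give. All cells were transfected 2 times, with 48 h after each transfection, so both groups shared the line, the serum and the reagent. Each group was 1 array of 1 line, without replicates, so the values carry no error between cultures, no test was possible, and culture, extraction, array and siRNA cannot be told apart.

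In TGF-beta signalling, secreted ligands held in a latent form by binding proteins bring together type I and type II receptor kinases, which phosphorylate SMAD proteins. The SMADs enter the nucleus with SMAD4 and act on target genes, some of which encode inhibitors of the same pathway. In the Hippo pathway, the kinases STK3 and STK4 act on LATS1 and LATS2, which keep the coactivators YAP1 and WWTR1 (TAZ) out of the nucleus, where they would bind TEAD factors. The line MDA-MB-231 is known as a model with active YAP and with a response to TGF-beta, and CCN1, CCN2 and ANKRD1 are widely used readouts of YAP and TEAD.

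The members differed little between the arrays and went both ways. Of the 53 genes with a probe, 41 read above the floor on both arrays, a limit of 40.9 on the NSD3L siRNA array and 41.0 on the control array set at the upper edge of the background. Among these 41 genes, 23 had a higher intensity with the NSD3L siRNA and 18 a lower one, where 49.3% of the 10545 measured genes were higher and 50.6% lower. The median log2 ratio of the members was 0.02, against a median below 0.01 in size over all measured genes. No member differed more than 2-fold, the threshold of the series description, which 0.341% of all measured genes passed upward and 0.607% downward. At 1.5-fold, 2 members were higher, TGFBR2 and ANKRD1, where 3.63% of all genes were, and 1 was lower, SMAD5, where 4.06% of all genes were. These shares are near the background. CCN1 and TEAD3 read just under that limit, at 1.49-fold higher each.

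**Figure D1:**
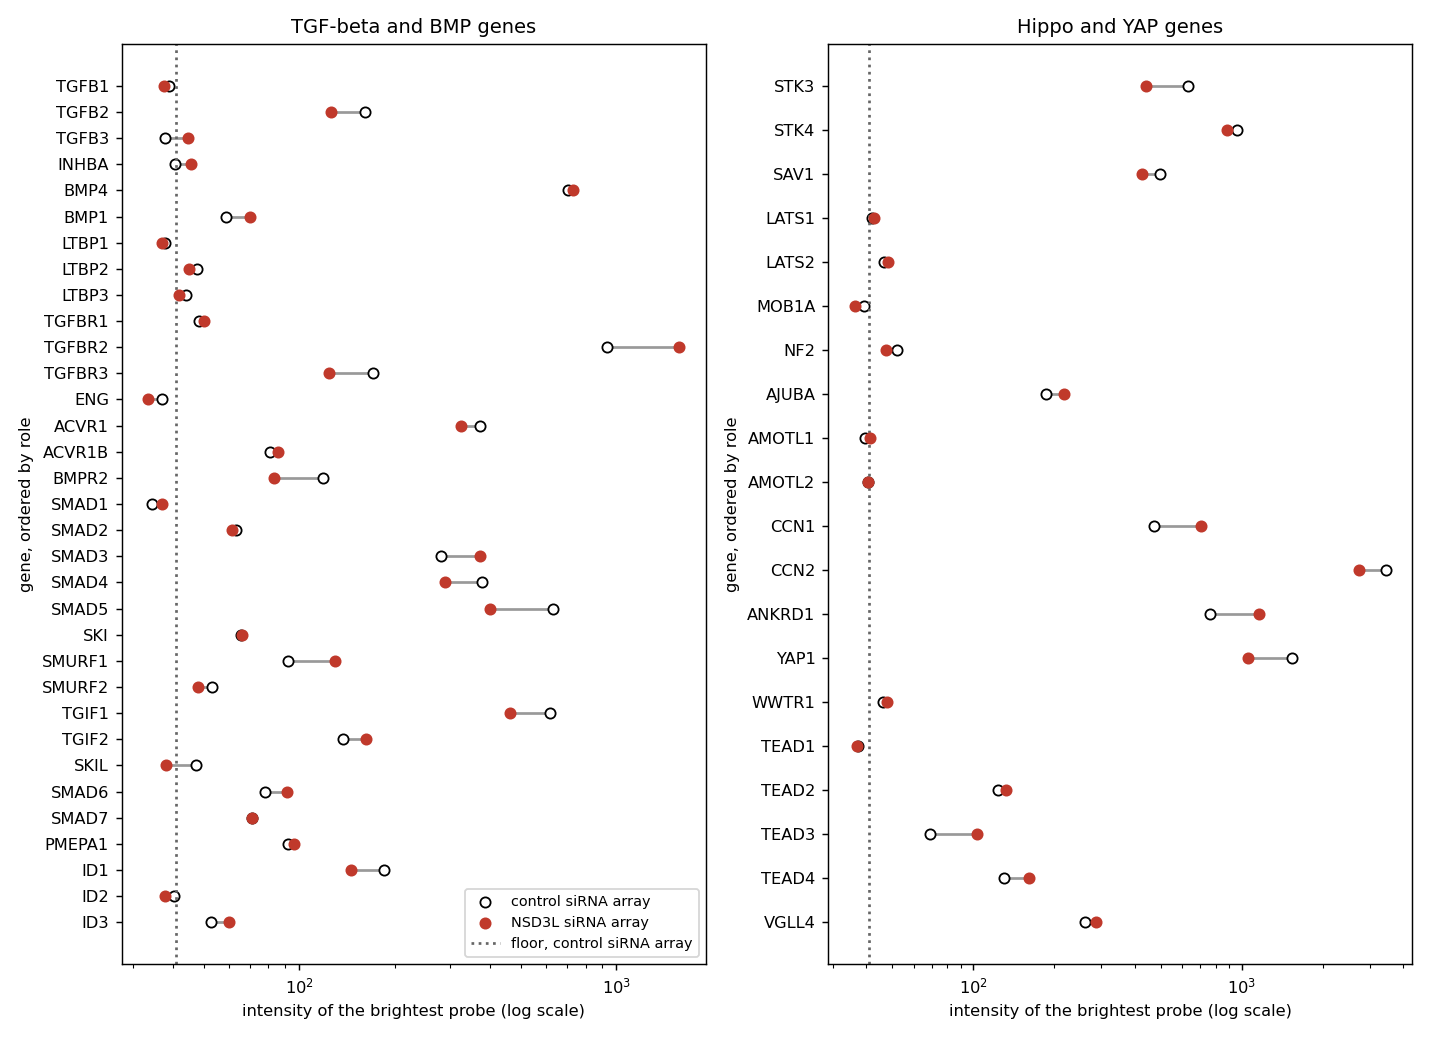
Intensity of the brightest probe of each of the 53 genes on the control siRNA array (open circles) and the NSD3L siRNA array (filled circles), on a log scale, with a dotted line at the floor of 41.0 of the control array. The longest lines between circles belong to genes such as TGFBR2, SMAD5, ANKRD1, CCN1 and TEAD3, while most genes near the dotted line show short ones.

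The array gives 1 reading per probe, and a fold is a ratio of the 2 readings on the deposited linear scale. The SD of this ratio, on the log2 scale, among similarly bright probes describes how far probes spread on these arrays, but it is no error between cultures. It ran from 0.064 among the dimmest measured probes to 0.40 among bright ones. Dim probes keep a background that draws their ratios toward 0, so a small ratio near the floor is not a sign of equal expression. By that SD, 6 of the 41 members were more than 1 SD higher and 7 more than 1 SD lower, where 14.7% and 16.1% of all measured genes were. Among the 7 was LTBP3, at 42.0 against 43.9 just above the floor, only because the SD there was 0.064. All probes of the targeted gene, NSD3, read near the floor. Its 3 probes read 41.6 against 45.0, 37.6 against 41.9 and 40.8 against 55.3, each lower with the NSD3L siRNA, too dim to measure the depletion. The last of them, with the largest difference, is annotated to another transcript of NSD3 than the rest. Whether it reads NSD3L was not tested.

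Among the ligand genes, those measured on both arrays were close to level or lower. TGFB2, which encodes a TGF-beta ligand and is also known as a YAP target, read 126 on the NSD3L siRNA array and 162 on the control array, a log2 ratio of -0.35. BMP4, encoding a bone morphogenetic protein, read 729 against 702, a log2 ratio of 0.05, and its dimmer probe gave 0.15. TGFB1, the founding ligand gene, stayed under the floor on both arrays at 37.5 and 38.8. TGFB3 and INHBA, which encodes the subunit of activin A, passed the floor with the NSD3L siRNA alone, at 44.6 and 45.7, and were at least 1.09-fold and 1.11-fold higher. Those bounds rest on readings just above background and say little about size.

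The genes of ligand latency and processing read near the background. BMP1, a protease that cuts procollagen and latency proteins, read 70.2 against 58.7, a log2 ratio of 0.26. The latent TGF-beta binding protein genes LTBP2 and LTBP3 gave log2 ratios of -0.09 and -0.07, and LTBP1 was under the floor on both arrays. Of the 4 LTBP3 probes, 1 passed the floor on both arrays.

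Among the receptor genes, TGFBR2, encoding the type II receptor that binds TGF-beta, had the highest log2 ratio of all 41 measured members. Its brightest probe, ILMN_1726245, read 1579 on the NSD3L siRNA array and 932 on the control array, 1.69-fold higher, a log2 ratio of 0.76 beside an SD of 0.34 among similarly bright probes. Of all measured genes, 1.41% had a ratio as high. A dimmer probe, ILMN_1824229, read 67.7 against 59.5, a log2 ratio of 0.19, and ILMN_1744862 was under the floor on both arrays. As the mean of the probes above the floor, TGFBR2 had a log2 ratio of 0.47 and was under 1.5-fold. The probes for this gene were thus both higher with the NSD3L siRNA and differed in size.

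Of the other receptors measured on both arrays, 3 were lower and TGFBR1 and ACVR1B slightly higher. BMPR2, the type II receptor for BMP ligands, read 83.5 against 119, a log2 ratio of -0.51. TGFBR3, the coreceptor betaglycan, read 124 against 171, a log2 ratio of -0.46. ACVR1, a type I receptor of the BMP branch, read 324 against 373, a log2 ratio of -0.20. These 3 genes were all lower with the NSD3L siRNA, BMPR2 and TGFBR3 by more than the SD of similarly bright probes. TGFBR1, the type I partner of TGFBR2, read 50.3 against 48.5 near the floor, a log2 ratio of 0.05. ACVR1B, an activin type I receptor, read 85.8 against 80.8, a log2 ratio of 0.09, and another of its probes passed the floor with the NSD3L siRNA alone, at 43.1 against 35.1. The ratios of both genes were smaller than that of TGFBR2, at readings where the background draws ratios toward 0. ENG, encoding endoglin, was under the floor at 33.4 and 37.0.

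The signalling SMAD genes went both ways. SMAD3, which carries the TGF-beta signal, read 373 on the NSD3L siRNA array and 279 on the control array, a log2 ratio of 0.42. SMAD4, the shared partner of all signalling SMADs, read 289 against 377, a log2 ratio of -0.38. SMAD5, of the BMP branch, read 401 against 632 and was 1.57-fold lower, its log2 ratio of -0.65 being the lowest of the 41 members. The SD among similarly bright probes was 0.40 for all 3 genes, so SMAD3 and SMAD5 lay past it and SMAD4 within it. Of all measured genes, 2.84% had a ratio as low as that of SMAD5. After removal of the trend of ratio with gene density, a setting chosen after seeing the data, SMAD5 was at -0.56 and under 1.5-fold. SMAD2, the other SMAD of the TGF-beta branch, read 61.3 against 63.3, and SMAD1 was under the floor on both arrays at 37.1 and 34.5.

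The corepressor and ubiquitin ligase genes also went both ways, with 3 of 5 higher. SMURF1, a ubiquitin ligase that marks SMADs and receptors for breakdown, read 130 against 91.9, a log2 ratio of 0.49. Its close relative SMURF2 read 48.0 against 53.2, a log2 ratio of -0.15. TGIF1, a homeodomain corepressor of SMADs, read 462 against 619 by its brightest probe, a log2 ratio of -0.42, while 2 probes just above the floor gave 0.08 and -0.02. TGIF2 read 162 against 138, a log2 ratio of 0.23. SKI, a SMAD corepressor, read 66.1 against 65.4. Within both pairs of relatives, SMURF1 with SMURF2 and TGIF1 with TGIF2, one gene was higher and the other lower. Whether the probes tell such relatives apart, here and in the STK, TEAD and SMAD genes, was not tested, since no probe sequences were used.

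Of the 5 measured genes that SMADs are known to induce, 4 were higher, by log2 ratios of 0.01 to 0.23, and ID1 was lower. Over all measured genes, 49.3% were higher. SMAD6 and SMAD7, the inhibitory SMADs of the pathway's feedback, read 91.7 against 78.0 and 71.3 against 70.9, log2 ratios of 0.23 and 0.01. PMEPA1, a membrane protein that holds SMADs away from the receptor, read 96.1 against 92.1, a log2 ratio of 0.06. SKIL, a corepressor that is itself a TGF-beta target, read 37.9, under the floor, against 47.3, and was at least 1.16-fold lower. ID1, a classic BMP target that inhibits basic helix-loop-helix factors, read 145 against 186, a log2 ratio of -0.35, and ID3 59.9 against 52.8, a log2 ratio of 0.18. ID2 was under the floor on both arrays. All of the measured SMAD targets were within 1 SD of similarly bright probes.

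**Figure D2:**
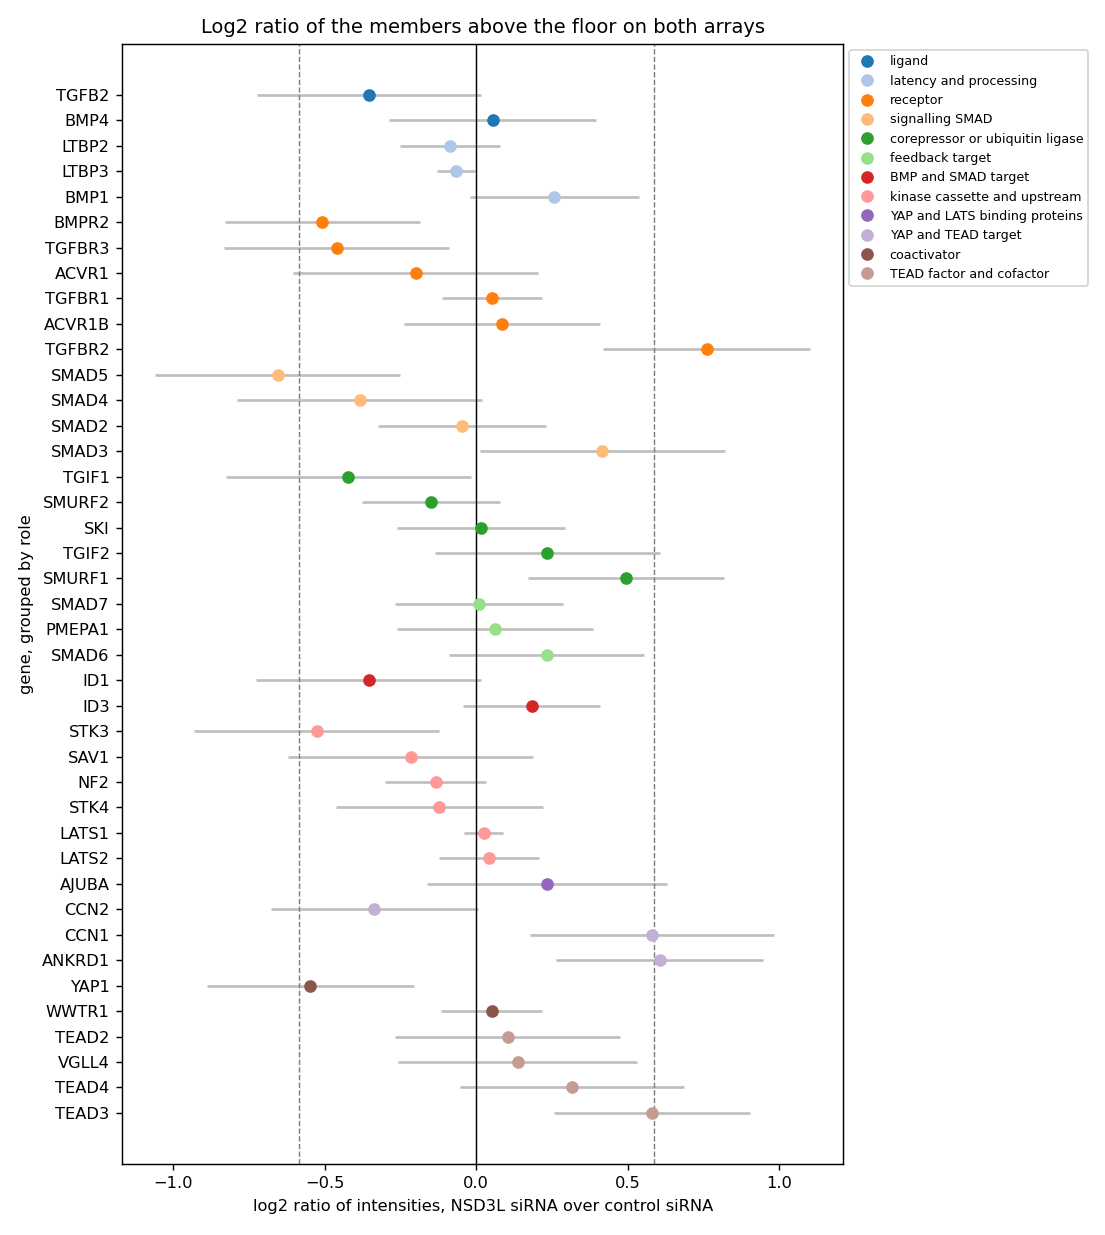
Log2 ratio of intensities, NSD3L siRNA over control siRNA, for the 41 members above the floor on both arrays, by role. Bars are 1 SD of that ratio among similarly bright probes, not an error between cultures, and dashed lines mark 1.5-fold. TGFBR2 and ANKRD1 lie past the upper line and SMAD5 past the lower one.

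Of the 6 measured genes of the Hippo kinase cassette, 4 were lower, where 50.6% of all measured genes were. The other 2, LATS1 and LATS2, were slightly higher but too near the floor to be called level. STK3 (MST2), a kinase at the head of the cascade, read 440 on the NSD3L siRNA array and 633 on the control array, a log2 ratio of -0.53. Its paralogue STK4 (MST1) read 882 against 960, a log2 ratio of -0.12, and SAV1, the scaffold of both kinases, 426 against 494, a log2 ratio of -0.22. All 3 were lower, STK3 by more than the SD of similarly bright probes and the others within it. NF2, the upstream tumour suppressor merlin, whose gene is known to be mutated in this line, read 47.2 against 51.8, and LATS1 and LATS2, the kinases that phosphorylate YAP1, gave log2 ratios of 0.02 and 0.04, all close to the floor. MOB1A, the LATS coactivator, was under the floor on both arrays. Of the LATS and YAP binding proteins, AJUBA, a LIM protein that restrains LATS, read 219 against 186, a log2 ratio of 0.23, and its other probes gave 0.28 and 0.13. AMOTL1, an angiomotin relative that binds YAP1, was at the floor.

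Of the coactivators YAP1 was lower, while the measured TEAD genes were higher. YAP1 read 1053 on the NSD3L siRNA array and 1539 on the control array, 1.46-fold lower, a log2 ratio of -0.55 beside an SD of 0.34 among similarly bright probes. WWTR1, the YAP1 paralogue, read 47.8 against 46.2, near the floor. All 4 TEAD factor and cofactor genes that could be measured were higher, where 49.3% of all measured genes were. However, TEAD2 was at -0.04 after removal of the gene density trend. TEAD3 read 103 against 69.0, a log2 ratio of 0.58, TEAD4 162 against 130, a log2 ratio of 0.32, and TEAD2 132 against 123, a log2 ratio of 0.10. VGLL4, a cofactor that competes with YAP1 for TEAD factors, read 286 against 260, a log2 ratio of 0.14. Of these 4, TEAD3 alone was past the SD of similarly bright probes. TEAD1 was under the floor on both arrays.

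The 3 measured YAP and TEAD targets of the list did not share a direction. ANKRD1, a nuclear ankyrin repeat protein of stretched muscle, read 1161 on the NSD3L siRNA array and 764 on the control array, 1.52-fold higher, a log2 ratio of 0.60. CCN1, the matricellular protein CYR61, read 704 against 471, a log2 ratio of 0.58. CCN2, the matricellular protein CTGF, read 2728 against 3443, a log2 ratio of -0.34. ANKRD1 and CCN1 were thus higher by more than the SDs of 0.34 and 0.40 among similarly bright probes, and CCN2 was lower within its SD of 0.34. AMOTL2, an angiomotin relative and YAP target, was under the floor on both arrays at 40.6 and 40.5. Each of these genes had 1 probe, so no second reading was at hand.

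Promoter sequence is shown for targets and components that carry the TEAD motif but went different ways. Promoters of the members came from RefSeq, build GRCh38.p14, as the 250 bases before each gene's start, and were in the table for 48 of the 54 genes, without BMP1, CCN1, SKI, STK3, TEAD1 and TEAD4. The sequences below are read 5′ to 3′ on the gene's strand, with each match to the TEAD motif GGAATG or its reverse complement CATTCC in capitals. They are ANKRD1 at chr10:90921088-90921337 (minus strand), CCN2 at chr6:131951373-131951622 (minus strand), YAP1 at chr11:102110197-102110446 (plus strand) and SMAD5 at chr5:136132595-136132844 (plus strand).
ANKRD1: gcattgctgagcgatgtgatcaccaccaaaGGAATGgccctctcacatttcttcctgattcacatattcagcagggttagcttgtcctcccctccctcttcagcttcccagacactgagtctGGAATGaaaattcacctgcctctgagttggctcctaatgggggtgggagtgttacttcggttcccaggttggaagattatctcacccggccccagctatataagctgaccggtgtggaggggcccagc
CCN2: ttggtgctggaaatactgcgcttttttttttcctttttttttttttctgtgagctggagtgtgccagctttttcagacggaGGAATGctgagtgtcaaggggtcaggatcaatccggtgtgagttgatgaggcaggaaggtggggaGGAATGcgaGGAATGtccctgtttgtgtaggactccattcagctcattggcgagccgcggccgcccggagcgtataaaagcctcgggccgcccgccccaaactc
YAP1: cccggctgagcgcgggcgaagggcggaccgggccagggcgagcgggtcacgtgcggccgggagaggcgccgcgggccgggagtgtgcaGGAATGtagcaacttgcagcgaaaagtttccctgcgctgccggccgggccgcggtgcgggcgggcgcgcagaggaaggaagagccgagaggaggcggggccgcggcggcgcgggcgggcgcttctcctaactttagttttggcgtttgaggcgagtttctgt
SMAD5: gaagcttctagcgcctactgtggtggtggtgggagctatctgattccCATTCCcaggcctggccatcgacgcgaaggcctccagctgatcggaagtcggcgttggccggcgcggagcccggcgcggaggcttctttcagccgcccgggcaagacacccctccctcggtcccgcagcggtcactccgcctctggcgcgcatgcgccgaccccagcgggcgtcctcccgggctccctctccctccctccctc

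ANKRD1 held 2 matches, starting 220 and 128 bases before the start, and CCN2 held 3, starting 169, 104 and 95 bases before it, so the target with more matches was the lower one. YAP1 and SMAD5, both lower with the NSD3L siRNA, held 1 match each. In all, 7 of 48 member promoters (14.6%) held the motif on either strand, against 11.9% of all 35116 promoters of the table and 10.5% of those of protein-coding genes. Beside the 4 genes shown, they were TGIF2 with a log2 ratio of 0.23, TGFB2 with -0.35 and BMPR1A, so the genes with the motif went both ways.

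The palindromic SMAD motif GTCTAGAC was found in 1 member promoter, that of SMAD6, and in 0.182% of all promoters. It is shown in capitals in the last 100 bases before the SMAD6 start, at chr15:66702136-66702235 (plus strand), because SMAD6 is a feedback gene of the pathway.
SMAD6: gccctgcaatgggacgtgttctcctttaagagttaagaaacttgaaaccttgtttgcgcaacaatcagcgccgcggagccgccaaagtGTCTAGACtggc

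SMAD6 had a log2 ratio of 0.23, within the SD of similarly bright probes. The motif GGCGCC, known from SMAD1 and SMAD5 binding and its own reverse complement, was in 15 of 48 member promoters (31.2%), against 16.4% of all promoters and 20.7% of those of protein-coding genes. Its holders included TEAD3 and SMAD3 on the higher side and YAP1, BMPR2 and SMAD4 on the lower. Of the 10 targets with a promoter, 2 held it. The promoters compared were not matched for base composition or expression, so a higher share in members is no result about SMADs. CAGACA or its reverse complement TGTCTG was in 9 member promoters (18.8%), against 13.6% of all promoters. The AP-1 motif TGACTCA or its reverse complement TGAGTCA was in 1, SMAD1, against 4.20%. These matches describe the sequence and are not binding sites.

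Components and targets were set side by side, the latter being the genes that SMADs or YAP and TEAD factors are known to induce. The 33 measured components had a median log2 ratio of 0.02 and ran from -0.65 for SMAD5 to 0.76 for TGFBR2, with 17 higher and 16 lower. The 8 measured targets had a median of 0.12 and ran from -0.35 for ID1 to 0.60 for ANKRD1, with 6 higher and 2 lower. The median of components less that of targets was -0.11, or -0.0039 with no floor, and the ranges overlapped over the whole span of the targets. By pathway, the 25 measured TGF-beta and BMP genes had a median of 0.01, with 13 higher, and the 16 measured Hippo genes one of 0.05, with 10 higher. Beside all these counts, 49.3% of all measured genes were higher and 50.6% lower. With genes of a mean intensity over 100 alone, a setting chosen after seeing the data, the 20 components had a median of -0.16, with 9 higher and 11 lower, and the 4 targets one of 0.12. Over all genes that bright the median log2 ratio was -0.01, with 49.1% higher and 50.7% lower. Of the 24 bright members, 2 were more than 1.5-fold higher and 1 lower, where 5.75% and 5.85% of all bright genes were.

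**Figure D3:**
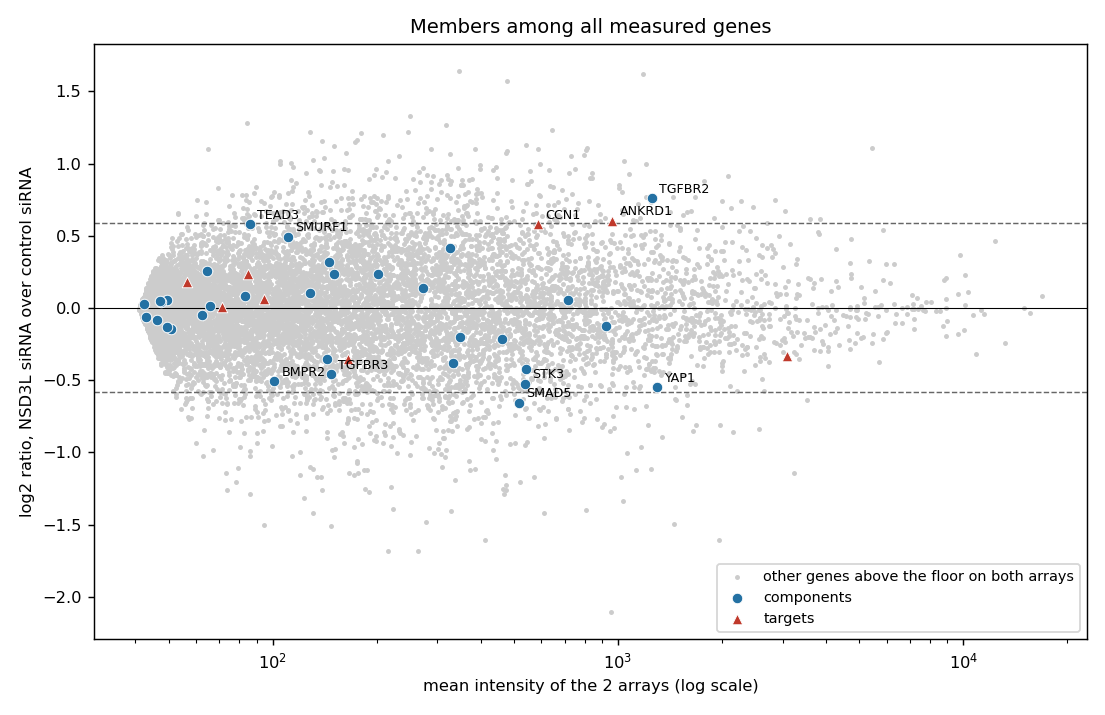
Log2 ratio of NSD3L siRNA over control siRNA against the mean intensity of both arrays (log scale) for all measured genes (grey), components (circles) and targets (triangles), with dashed lines at 1.5-fold. The members lie inside the cloud of other genes at every intensity, and ratios narrow toward 0 at the dim end.

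Probes of the same gene were compared where several passed the floor on both arrays, which held for 4 members. In 3 of them, TGFBR2, BMP4 and AJUBA, the probes had the same sign, and in TGIF1 they did not. The other measured members rest on 1 probe each, so an effect of a single probe cannot be told from one of the gene.

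The members' place in the genome was compared because log2 ratios over all genes moved with gene density, taken as how many further protein-coding genes have their midpoint up to 500 kb away on either side in GRCh38.p14. Spearman's rho between log2 ratio and density was 0.31 across 10537 genes of these 2 arrays, and 0.14 across the 41 measured members, which are not independent replicates and share both arrays. The members had a median of 9 such neighbours and all genes 11. With the density trend removed, 3 members were more than 1.5-fold higher, TGFBR2, ANKRD1 and CCN1, and none more than 1.5-fold lower.

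The other genes of the pathways were read as 5 lists, chosen with earlier results of these data known. That of YAP and TEAD targets held the most genes past 1.5-fold. Among ligands, traps and activators of TGF-beta and BMP, 14 of 23 genes were measured, 7 higher and 7 lower. FST, encoding follistatin, which binds activin and keeps it from its receptor, read 1103 on the NSD3L siRNA array and 516 on the control array, 2.14-fold higher, and its dimmer probe read 185 against 101, a log2 ratio of 0.87. Both FST probes were thus higher. GDF15, a distant TGF-beta relative of the stress response, read 165 against 301, 1.82-fold lower. No gene passed 1.5-fold among the 17 measured receptors and SMAD regulators, with a median of -0.03, but 3 were 1.49-fold lower, just under that limit. They were FKBP1A, an immunophilin that binds type I receptors, at 2129 against 3176, USP15, a deubiquitinase of the pathway, and PPM1A, a SMAD phosphatase. The 14 measured TGF-beta targets had no gene past 1.5-fold and a median of -0.06.

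In the list of other Hippo components, 25 of 38 genes were measured, with a median log2 ratio of 0.11. Of these, 16 were higher and 9 lower, where 49.3% and 50.6% of all measured genes were. WTIP, an AJUBA relative, read 79.7 against 48.0, 1.66-fold higher, and STRN3, a subunit of the phosphatase complex that counters STK3 and STK4, 257 against 403, 1.57-fold lower. The list of other YAP and TEAD targets held 16 genes, of which 14 were measured, 10 higher, 3 lower and 1, MYOF, with equal readings, where 49.3% of all measured genes were higher and 50.6% lower. Its median log2 ratio was 0.24, against a median below 0.01 in size over all genes. Of its 14 measured genes, 3 were past 1.5-fold higher and 0 lower, where 3.63% and 4.06% of all genes were. Among all genes with a mean intensity over 100, as F3, FOXF2 and AXL have, these shares were 5.75% and 5.85%. This list, like the others, was chosen with earlier results known, so its median and counts are not an independent result. F3, encoding the coagulation receptor tissue factor, read 794 against 398, 2.00-fold higher, and FOXF2, a forkhead factor, 257 against 136, 1.89-fold higher. AXL, a receptor kinase, read 3246 against 2159, a log2 ratio of 0.59, just past the limit at 1.504-fold. NT5E, the ectonucleotidase CD73, and IGFBP3 were on the lower side, with log2 ratios of -0.27 and -0.24. F3, FOXF2 and AXL thus read higher on the array with the lower YAP1 reading, beside ANKRD1 and CCN1, while CCN2, NT5E and IGFBP3 read lower.

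**Figure D4:**
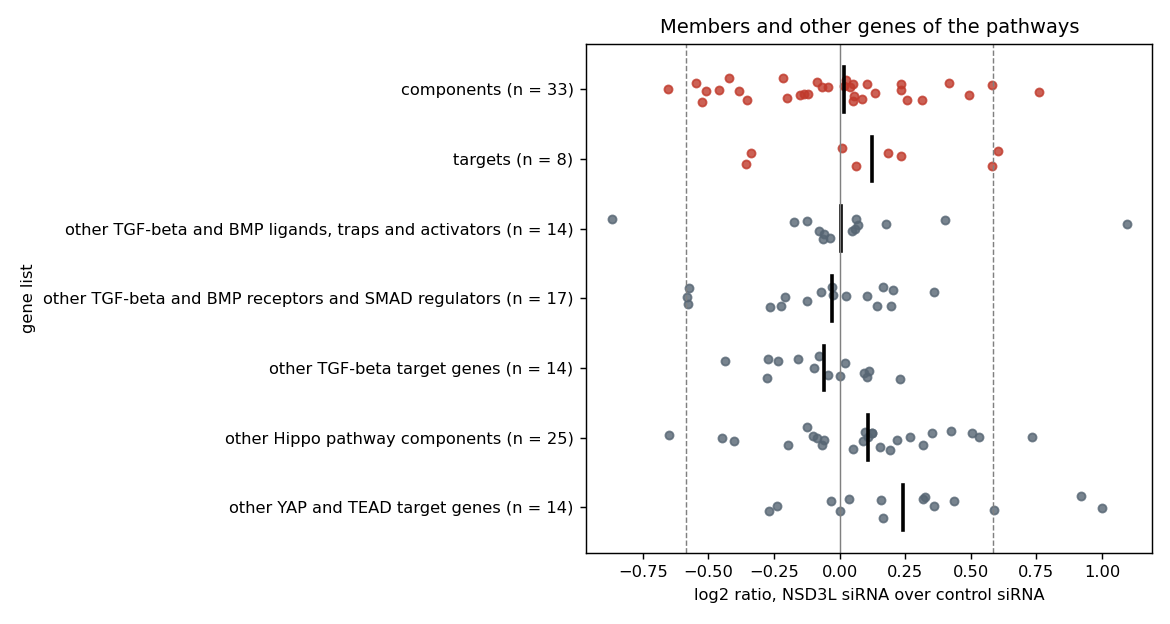
Log2 ratio of NSD3L siRNA over control siRNA for each measured gene of the members, split into components and targets, and of 5 lists of other pathway genes. Black bars are medians, and dashed lines mark 1.5-fold. The other YAP and TEAD targets have the highest median, 0.24, and FST is the point farthest to the right. The lists were chosen with earlier results of these data known.

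Marker genes were read beside the label of the cells. All 8 markers of the MDA-MB-231 line were above the floor on both arrays, among them VIM at 9129 on the NSD3L siRNA array and 8758 on the control array, and their summed intensity was 28397 against 27826. Beside AXL, 1 more of these markers was past 1.5-fold higher, the growth factor receptor gene EGFR at 350 against 182 by its brightest probe, while a dimmer probe read 56.6 against 57.9. Of 11 luminal breast markers, ESR1, PGR, GATA3, FOXA1 and TFF1 were under the floor on both arrays, and 6 were above it on both. These were KRT18 at 1731 against 1295, KRT19 at 733 against 561, KRT8 at 590 against 542 and EPCAM at 113 against 110. Nearer the floor were CDH1 at 47.6 against 45.4 and ERBB3 at 46.7 against 51.0. The summed intensity of the luminal list was 3439 against 2782, mainly from keratin genes. Of 8 fibroblast markers 7 were under the floor on both arrays, with sums of 318 and 314. Of the 7 blood and macrophage markers with a probe, 4 were under the floor, with sums of 1438 and 1429, mostly from CD68. Whether the keratin difference bears on the members' ratios was not tested.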

How the data were processed

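RNA from 1 culture of MDA-MB-231 cells per siRNA was measured on Illumina HumanWG-6 arrays with 48701 probes. The deposited values were linear intensities, 1 for each probe on an array. The submitters' processing notes name BeadStudio, and give no version, background correction or normalization. The sorted deposited intensities of the arrays differed by at most 0.025 on the log2 scale, and kept a background with modes of 34.8 and 34.9. Exact values recurred between arrays, such as 3443.34 for MSN with the NSD3L siRNA and for CCN2 with the control siRNA. As deposited, the arrays thus had nearly the same distribution, as quantile-type normalization leaves it. Quantile normalization could therefore change little, and the mean log2 ratio over all probes lay near 0 by construction.

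The log2 ratio of NSD3L siRNA over control siRNA was taken with no offset. The floor was 2 times an array's mode less its 1st percentile, and a probe above it on 1 array got a bound against the other array's floor. The brightest probe stood for a gene. A single symbol was given for 23687 probes, of which 23651 were updated through the RefSeq gene table, several for 35 and none for 24979. The series names array version 3.0, and whether the annotation is of that version was not established. SDs came from 10 brightness groups of 16511 probes.

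No test was possible, and the number of arrays limits precision. Members and lists were chosen with earlier results of these data known. All members were named, and from each list up to 3 genes a side past 1.5-fold. FKBP1A, IGFBP3, MYOF, NT5E, PPM1A and USP15 were chosen after their values were seen. Alternatives covered the floor, background, an offset of 16, normalization (quantile, median, lowess with a span of 0.3), the mean over probes and genes with both roles. Python 3.11.15, pandas 2.3.3, scipy 1.17.1 and statsmodels 0.14.6 were used.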

Additional observations from a re-analysis of the deposited data

How the results depend on the processing

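No paired analysis was possible because each group was 1 array. No member past 1.5-fold changed sign under the alternatives run. Small ratios of LATS1, SKI, SMAD2 and TEAD2 changed sign with the gene density trend removed and that of SMAD7 after lowess on intensity, and the median of components was -0.04 with the density trend removed and -0.02 without genes of both roles. A changed floor cannot move a gene's ratio, and the mean over probes can move only members with several measured probes. Many of the ratios counted next were thus fixed beforehand, and their count does not measure robustness. In all, 9 of 402 ratios under alternatives moved by more than the SD of similarly bright probes. Of these, 8 did so with the mode of each array subtracted, which enlarges ratios of dim probes. That setting gave 5 members more than 1.5-fold higher, with CCN1 at 0.62, SMURF1 at 0.73 and TEAD3 at 0.9997, and 3 lower, with BMPR2 at -0.78 and TGFBR3 at -0.61, and a median of 0.25 for targets. With the mean over probes 1 member was higher, since TGFBR2 was at 0.47. With the gene density trend removed 0 were lower, since SMAD5 was at -0.56, and at 2-fold 0 were higher and 0 lower. With genes of a mean intensity over 100 the components had a median of -0.16, and components less targets was -0.28, against -0.11 for all measured members. With no floor that difference was -0.0039 and the median of targets 0.0083. The difference was -0.04 with the floor at the median of each array and -0.11 with it at the 75th percentile. It thus shrank with lower floors and stayed with the higher one. The difference of -0.11 and its shifts with the floor were smaller than 0.13, a spread built from the SDs of similarly bright probes. For each class, the median SD was divided by the square root of the number of genes, and both were combined. This treats genes as independent, which they are not, so the spread is a yardstick and no error of the difference. The other alternatives kept the counts within 1.5 times and the medians within spreads built the same way. The intensity over background limits what dim members can show.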
